A study of Mus musculus with 16 samples.

Results

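The genes described here build the adhesion and membrane-skeleton system of the axon. They are the 4 L1 family adhesion genes L1cam, Nfasc, Nrcam and Chl1, the 3 ankyrins Ank1, Ank2 and Ank3, and the 3 spectrins Sptan1, Sptbn1 and Sptbn4, 10 of the 22911 named mouse genes on the array. They were read by the non-control probes whose transcript accession belongs to one of these genes, 30 of 56605 probes, and every gene had at least 1. The genes were selected on NR minus veh differences, since L1 pathway gene sets leaned lower with NR in these same arrays. The NR differences are therefore given as a description, with no test, and support nothing.

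RNA of the cerebellum was measured on 16 one-colour Agilent arrays, 1 mouse an array and 4 arrays in each of 4 groups. WT littermates and Atm-/- mice, homozygous for the B6;129S4-Atmtm1Bal/J allele, received plain drinking water (veh) or water with nicotinamide riboside (NR) at 3.5 mg/ml, which is 12 mM, from 6 weeks of age for 2 months, so that tissue was taken at about 3.5 months. ATM is a kinase of the response to DNA double-strand breaks, and NR is a precursor of NAD+. The knockout is constitutive and affects every cell of the animal, the strain background is mixed, and all mice were labelled male. Values are log2 signals after quantile normalisation, and a difference is a difference of group means on that scale.

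L1 family proteins span the neuronal membrane with immunoglobulin and fibronectin domains outside the cell and a short tail inside, which binds ankyrin. Ankyrins in turn hold channels and adhesion proteins on a lattice of alpha and beta spectrin below the membrane. In the cerebellum this assembly is known from the axon initial segment of Purkinje cells, where neurofascin, ankyrin-G and beta-IV spectrin lie together, from the nodes of Ranvier, and from the growth and guidance of axons.

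Promoters of the 4 L1 family genes are shown because their brightest probes took both directions with NR in Atm-/- mice. Each runs from 250 bases before to 50 after the annotated start, 5′ to 3′ on the gene's strand, as RefSeq gives it on GRCm38.p6. Capitals mark GC boxes, the letters GGGCGG on either strand. Of the 10 genes, 8 had a promoter entry, and Ank1 and Ank3 had none. The positions are chrX:73880785-73881084 (minus strand) for L1cam, chr1:132707277-132707576 (minus strand) for Nfasc, chr12:44328635-44328934 (plus strand) for Nrcam and chr6:103510626-103510925 (plus strand) for Chl1. Where a gene had several entries, as L1cam and Nfasc had with 2 each, the most upstream was taken.
L1cam: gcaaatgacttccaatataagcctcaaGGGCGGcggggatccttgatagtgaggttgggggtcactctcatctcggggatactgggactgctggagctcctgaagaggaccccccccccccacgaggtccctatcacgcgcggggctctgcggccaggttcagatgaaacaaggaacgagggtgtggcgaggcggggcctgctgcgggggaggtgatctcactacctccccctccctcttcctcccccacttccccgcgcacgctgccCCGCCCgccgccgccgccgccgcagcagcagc
Nfasc: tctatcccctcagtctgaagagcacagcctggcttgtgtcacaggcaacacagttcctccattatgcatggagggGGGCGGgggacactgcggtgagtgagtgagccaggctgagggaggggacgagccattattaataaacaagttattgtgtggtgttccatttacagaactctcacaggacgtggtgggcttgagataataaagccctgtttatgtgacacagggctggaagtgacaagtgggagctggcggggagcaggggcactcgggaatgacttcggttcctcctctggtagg
Nrcam: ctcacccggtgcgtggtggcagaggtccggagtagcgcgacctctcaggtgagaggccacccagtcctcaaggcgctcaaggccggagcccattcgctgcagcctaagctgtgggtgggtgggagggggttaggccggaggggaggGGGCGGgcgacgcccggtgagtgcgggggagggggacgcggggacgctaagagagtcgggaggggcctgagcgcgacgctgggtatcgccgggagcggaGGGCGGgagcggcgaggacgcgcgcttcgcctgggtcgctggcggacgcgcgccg
Chl1: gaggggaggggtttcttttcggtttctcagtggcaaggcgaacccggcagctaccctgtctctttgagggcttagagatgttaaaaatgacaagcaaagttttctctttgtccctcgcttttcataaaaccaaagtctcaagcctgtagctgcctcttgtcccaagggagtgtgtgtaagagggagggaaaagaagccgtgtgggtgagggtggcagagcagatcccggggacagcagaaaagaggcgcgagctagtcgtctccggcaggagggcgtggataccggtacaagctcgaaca
The L1cam and Nrcam windows each held 2 GC boxes, the Nfasc window held 1 and the Chl1 window held 0, and 35.7% of the 32851 mouse promoters of this length held at least 1. CpG dinucleotides numbered 22 in L1cam, 7 in Nfasc, 37 in Nrcam and 13 in Chl1, against a median of 7 over all promoters. The GC content was 67% in L1cam, 54.3% in Nfasc, 74% in Nrcam and 53.7% in Chl1, with 52.7% as the median over all promoters. None of the 4 windows held the letters TATAAA, which 13.6% of promoters held, and CCAAT stood once in L1cam alone of the 4 and in 37.4% of all promoters. Both motifs were searched on both strands, and a match of letters is no evidence of binding.

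The arrays carried several features that touch the results. The WT arrays lay on 1 slide and the Atm-/- arrays on the other, so the 2 genotypes cannot be told apart from the 2 slides, and on both slides veh lay in one row and NR in the other, so treatment and row cannot be told apart. In 4 arrays (WT NR replicates 1 and 4, Atm-/- veh replicate 3 and Atm-/- NR replicate 4) the Y-linked gene Eif2s3y was not above background and Xist was, against the male label. The brightest probe of each gene is given with and without these 4 arrays, and the other probes and the partner genes only with them. WT veh replicate 4 stood apart with a summed choroid plexus signal of 18.22 on the log2 scale, where the next highest of the 16 arrays read 13.99. Of the 2 Atm probes, one read 8.51 to 9.04 in WT and 7.70 to 8.10 in Atm-/- arrays, and the other overlapped with 8.87 to 9.28 and 8.60 to 9.22. Which part of the transcript the probes cover was not used here, so neither checks the genotype by itself. Detected probes numbered 39134 to 41905 in Atm-/- veh arrays and 34945 to 37817 in Atm-/- NR arrays, and in WT mice 37843 to 42559 on veh and 36402 to 40010 on NR, so that veh and NR arrays did not overlap in Atm-/- mice and did in WT mice. The part of detection in the results was not tested. All 10 Purkinje and all 8 granule cell markers were detected on every array.

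Of the 30 member probes, 29 passed the filter on dim signal, which asked for signal well above background on every array of some group. The probe left out was the dimmest of 3 for Sptbn4, well above background on 3 of 4 arrays of WT veh, 2 of Atm-/- veh and 1 each of WT NR and Atm-/- NR. The kept probes were 11 for the L1 family, 11 for the ankyrins and 7 for the spectrins. Each gene is described by its brightest kept probe, and its other probes are numbered in order of signal.

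L1cam, the founding member of the family and a receptor for axon growth and bundling, had the widest span of group means of all 10 genes, 0.58. Its signal in WT mice was 11.49, 11.55, 11.60 and 11.64 on veh and 11.25, 11.25, 11.33 and 11.29 on NR. In Atm-/- mice it was 11.74, 11.54, 11.05 and 11.50 on veh and 11.03, 10.93, 11.03 and 11.00 on NR. Within each genotype every NR array lay below every veh array, and Atm-/- veh replicate 3, an array without Y-gene signal, was the low value of its group. The L1cam gene is on the X chromosome. The NR minus veh difference was -0.46 (SE 0.11) in Atm-/- mice, a ratio of 0.725, and -0.29 (SE 0.11) in WT mice. On the 12 arrays with Y-gene signal these differences were -0.60 and -0.28. The other 2 L1cam probes differed by 0.01 (SE 0.14) and -0.0014 (SE 0.21) in Atm-/- mice and by -0.12 (SE 0.14) and -0.18 (SE 0.21) in WT mice. In bulk tissue fewer cells of a type and less RNA per cell cannot be told apart, here and in every value that follows.

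Nfasc encodes neurofascin, whose neuronal form organises the initial segment and whose glial form sits in paranodal junctions. Its brightest probe averaged 13.84 ± 0.17 on veh and 13.82 ± 0.15 on NR in WT mice, and 13.98 ± 0.05 on veh and 13.55 ± 0.12 on NR in Atm-/- mice (SD, n = 4). The 4 Atm-/- NR arrays read 13.59, 13.46, 13.43 and 13.70, all below the 4 Atm-/- veh arrays at 13.95 to 14.05. The difference with NR was -0.44 (SE 0.10) in Atm-/- and -0.02 (SE 0.10) in WT mice. The second Nfasc probe and the third had differences of -0.39 (SE 0.13) and -0.32 (SE 0.20) in Atm-/- mice, with the signs turned in WT mice at 0.16 and 0.14. The fourth probe, the dimmest, differed by 0.04 (SE 0.10).

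Nrcam and Chl1 had values above 0 by their brightest probes. Nrcam, a partner of neurofascin at nodes and initial segments, read 14.39, 14.52, 14.61 and 14.42 in Atm-/- veh mice and 14.77, 14.59, 14.70 and 14.83 in Atm-/- NR mice. The lowest NR array lay just inside the veh range, and the difference was 0.24 (SE 0.08), against -0.10 (SE 0.08) in WT mice. The 4 WT veh arrays, at 14.73 to 14.86, were all above the Atm-/- veh arrays. Chl1, the close homologue of L1 that acts in neurite growth and in the placing of cerebellar interneuron synapses, differed by 0.18 (SE 0.11) with NR in Atm-/- mice and by 0.15 (SE 0.11) in WT mice.

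For NR in Atm-/- mice the probes of Chl1 had the widest span of values of these genes. The second Chl1 probe read 13.66, 13.39, 13.51 and 13.68 in Atm-/- veh mice and 12.99, 12.57, 12.80 and 12.25 in Atm-/- NR mice, a difference of -0.90 (SE 0.24) where the first probe had 0.18. In WT NR mice this probe split into 13.07 and 13.39 in replicates 1 and 3 and 12.20 and 12.24 in replicates 2 and 4, and each pair held 1 array with and 1 without Y-gene signal. The third Chl1 probe had -0.17 (SE 0.19).

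**Figure D1:**
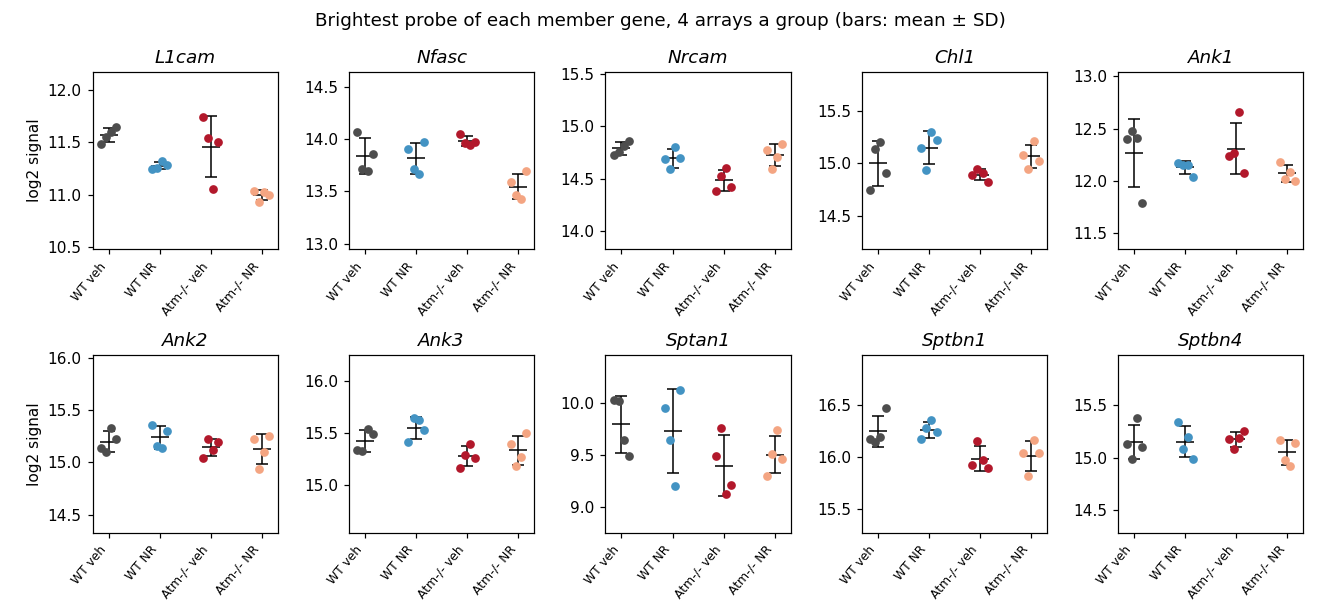
Log2 signal (vertical axis, spanning the same width in every panel) of the brightest probe of each of the 10 genes in the 4 groups, with 1 point an array and bars for mean ± SD (n = 4). L1cam and Nfasc lie lowest in Atm-/- NR mice, Nrcam lies lowest in Atm-/- veh mice, and Sptbn1 lies lower in both Atm-/- groups than in both WT groups.

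Probes of the ankyrins parted as well. Ank3 encodes ankyrin-G, which founds the axon initial segment. Its brightest probe differed with NR by 0.06 (SE 0.09) in Atm-/- mice and 0.13 (SE 0.09) in WT mice, from 15.27 ± 0.10 on veh to 15.33 ± 0.14 on NR and from 15.42 ± 0.11 to 15.55 ± 0.11 (SD, n = 4). The other 3 Ank3 probes differed with NR in Atm-/- mice by -0.51 (SE 0.08), -0.52 (SE 0.12) and -0.65 (SE 0.15). The second probe read 11.77, 11.57, 11.70 and 11.79 in Atm-/- veh and 11.33, 11.15, 11.05 and 11.27 in Atm-/- NR mice, and the other pair also had no overlap between these groups. In WT mice the 3 differences were -0.15, -0.06 and -0.15. The gene is known for several transcript forms of very different length, and which form each probe reads was not analysed here.

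Ank1, best known from the red cell membrane and also present in cerebellar neurons, differed with NR by -0.24 (SE 0.15), -0.46 (SE 0.14), -0.30 (SE 0.14) and 0.28 (SE 0.39) over its 4 probes in Atm-/- mice. The second Ank1 probe read 10.18 to 10.50 in Atm-/- veh and 9.83 to 9.96 in Atm-/- NR arrays, without overlap. The fourth had the widest spread of all member probes, with 5.12 in WT veh replicate 1 and 6.57 to 7.13 in the other 3 WT veh arrays. The summed signal of the 4 kept red cell markers ran from 17.74 to 19.95 in Atm-/- veh arrays and from 18.34 to 18.62 in Atm-/- NR arrays, and its part in the Ank1 values was not tested. Ank2, ankyrin-B of the distal axon, had the narrowest span of group means, 0.11. Its brightest probe differed by -0.02 (SE 0.09) with NR in Atm-/- mice, the second by -0.30 (SE 0.12) and the third by -0.04 (SE 0.16).

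**Figure D2:**
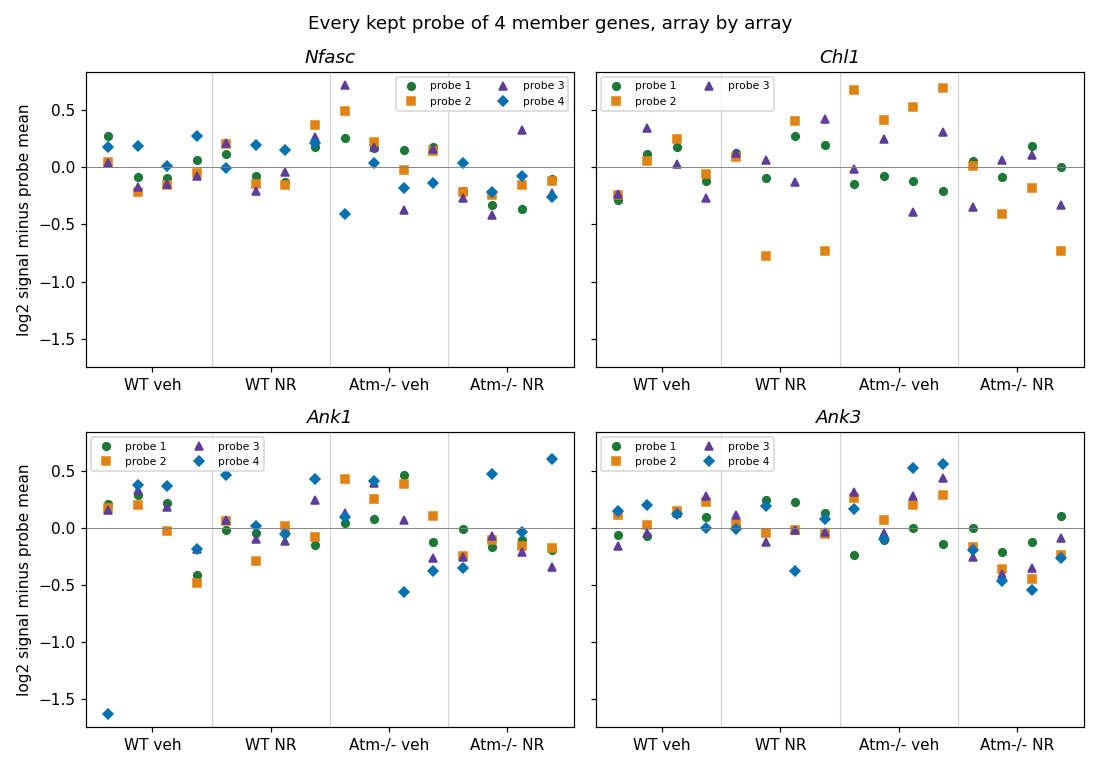
Log2 signal of every kept probe of Nfasc, Chl1, Ank1 and Ank3 minus that probe's own mean over 16 arrays (vertical axis), with 1 symbol a probe and arrays in replicate order within each group. In Ank3 probes 2 to 4 lie below their means in all 4 Atm-/- NR arrays, and in Chl1 probe 2 is high in Atm-/- veh mice where probe 1 is low.

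Over the 7 spectrin probes the median NR difference in Atm-/- mice was -0.13, beside -0.17 over the 11 L1 family probes and -0.30 over the 11 ankyrin probes. Sptan1, the alpha-II spectrin of neurons, was measured by 1 probe with 0.10 (SE 0.20) in Atm-/- and -0.06 (SE 0.20) in WT mice. On the 12 arrays with Y-gene signal its WT difference was -0.37, and the WT NR arrays ran from 9.20 to 10.12. Sptbn1, the widely expressed beta-II spectrin of the axonal lattice, had differences of 0.03 (SE 0.10), -0.01 (SE 0.11), -0.19 (SE 0.12) and -0.25 (SE 0.14) over its 4 probes in Atm-/- mice. Sptbn4, the beta-IV spectrin of initial segments and nodes, had -0.13 (SE 0.10) and -0.22 (SE 0.07). The second Sptbn4 probe read 13.26 to 13.38 in Atm-/- veh and 13.02 to 13.17 in Atm-/- NR arrays, without overlap.

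Counted over the whole system, 2 of the 10 genes (L1cam and Nfasc) passed an adjusted p of 0.05 in the limma fit over all probes for NR in Atm-/- mice, both lower. Over all 16737 named genes 11.5% passed, 4.8% as lower and 6.67% as higher. Of the 29 probes 7 passed, all lower: 1 each of L1cam, Nfasc, Chl1 and Ank1 and 3 of Ank3, where 9.04% of all 37253 kept probes passed and 4.48% passed as lower. Because this contrast chose the genes, nothing is read from these shares. The median difference was 0.01 over the 10 brightest probes, 5 higher and 5 lower, and -0.19 over the 29 probes, 21 of them lower, beside 0.04 over all named genes and 0.00 over all probes. Leaving out 1 array gave 0 genes and 2 probes without Atm-/- veh replicate 1, 0 genes and 1 probe without Atm-/- NR replicate 2 or replicate 3, 1 gene and 2 probes without Atm-/- veh replicate 4, and 4 probes without Atm-/- veh replicate 3. Calls over all probes moved as well, from 862 to 4405 with 1 array left out, against 3366 with all arrays. On the 12 arrays with Y-gene signal 1 gene and 2 probes passed, and calls over all probes fell too. There the brightest probes of the other genes differed with NR in Atm-/- mice by -0.50 in Nfasc, 0.25 in Nrcam, 0.19 in Chl1, -0.10 in Ank1, -0.07 in Ank2, 0.04 in Ank3, 0.03 in Sptan1, 0.02 in Sptbn1 and -0.15 in Sptbn4. All 9 kept the sign they had on 16 arrays. L1cam, Nfasc, Ank1 and Sptbn4 were lower in all 25 alternative settings that gave them a value, and Nrcam and Sptan1 in 0. These settings reuse the same arrays, so nothing is read from the signs.

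In WT mice no gene or probe passed for NR, and 0% of all probes did. At an unadjusted p under 0.05 the same fit gave 1479 named genes, 8.84% of all, and 1 of the 10 genes, L1cam. On the 12 arrays with Y-gene signal the WT differences were -0.14 in Nfasc, -0.09 in Nrcam, 0.12 in Chl1, -0.12 in Ank1, -0.05 in Ank2, 0.21 in Ank3, 0.07 in Sptbn1 and -0.0075 in Sptbn4, with the sign turned against 16 arrays in Ank2 and Sptbn4. The difference between the NR effects of the 2 genotypes gave 0 calls over all probes too, with 1962 probes at an unadjusted p under 0.05. That difference was negative for all 11 ankyrin probes (median -0.21), 6 of 11 L1 family probes (median -0.17) and 5 of 7 spectrin probes (median -0.13), beside 49.1% of all probes, and it shares its arrays with the contrast that chose the genes.

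**Figure D3:**
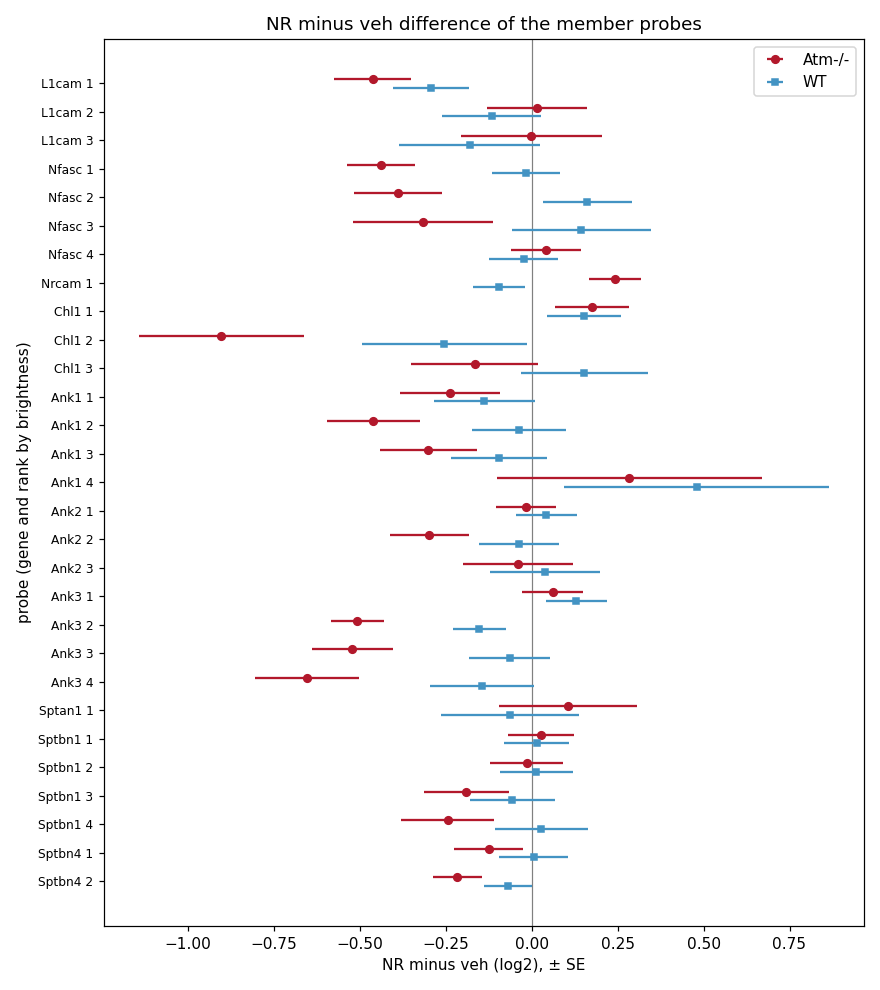
NR minus veh difference in log2 signal ± SE (horizontal axis) of the 29 kept probes in Atm-/- mice (circles) and WT mice (squares), with probes of a gene numbered in order of signal. In Atm-/- mice 21 of 29 probes lie below 0, from -0.90 for the second Chl1 probe to 0.28 for the fourth Ank1 probe.

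Probes of 1 gene often gave different NR values. The span between the highest and lowest probe of a gene for NR in Atm-/- mice had a median of 0.48 over the 8 genes with several kept probes and 0.25 over all 5983 such genes on the array. It was 1.08 for Chl1, 0.74 for Ank1 and 0.71 for Ank3. Probes of both signs stood in 6 of the 8 genes, and in 46.3% of all such genes. Over the same 8 genes the brightest probes had a median of -0.07 and the 19 others -0.25, while over all such genes these medians were 0.04 and -0.01. Probes of 1 gene share a target and are not replicates, and genes with more probes have wider spans, so these values describe the probes only.

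The contrast left for a test is the genotype difference averaged over veh and NR, since in this balanced design it is uncorrelated with both NR differences. By their brightest probes all 10 genes were lower in Atm-/- than in WT mice, with a median of -0.12, where 53.5% of all named genes were lower and the median was -0.01. None of the 10 passed an adjusted p of 0.05 in limma's test, with 0.221% of all named genes called. At an unadjusted p under 0.05 there were 5 (L1cam, Nrcam, Ank3, Sptan1 and Sptbn1), where 13.1% of all named genes were. The methods' own test on the deposited z-scores gave 3 before and 0 after Benjamini-Hochberg adjustment. When all kept probes of a gene were averaged, 7 of 10 were lower, and on the 12 arrays with Y-gene signal all 10 were.

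Sptbn1 had the smallest adjusted p of the 10 brightest probes. Its brightest probe read 16.17, 16.15, 16.19 and 16.47 in WT mice on veh and 16.17, 16.28, 16.35 and 16.24 on NR. In Atm-/- mice it read 15.92, 16.15, 15.97 and 15.89 on veh and 16.04, 15.81, 16.16 and 16.03 on NR. The WT arrays began at 16.15 and the Atm-/- arrays ended at 16.16, so that the genotypes barely overlapped. The difference was -0.25 (95% interval -0.40 to -0.11, limma adjusted p = 0.160), -0.22 without WT veh replicate 4 and -0.28 on the 12 arrays with Y-gene signal. The other 3 Sptbn1 probes gave -0.14, -0.29 and -0.29.

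Sptan1, whose protein pairs with the beta spectrins, had the largest difference among the brightest probes at -0.31 (95% interval -0.62 to -0.01, limma adjusted p = 0.374). It was -0.11 on the 12 arrays with Y-gene signal. L1cam had -0.20 (95% interval -0.37 to -0.03, limma adjusted p = 0.318), or -0.13 on those 12 arrays, and its other 2 probes had -0.21 and -0.44. Ank3 had -0.18 (95% interval -0.32 to -0.05, limma adjusted p = 0.259), or -0.27 on those arrays. Nrcam had -0.14 (95% interval -0.26 to -0.02, limma adjusted p = 0.303), or -0.18 on them.

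By their brightest probes the other 5 genes had intervals that included 0. Chl1 had -0.10 (95% interval -0.26 to 0.07), Ank2 -0.08 (-0.21 to 0.05), Nfasc -0.06 (-0.21 to 0.09), Sptbn4 -0.04 (-0.19 to 0.11) and Ank1 -0.01 (-0.23 to 0.21), with limma adjusted p from 0.606 to 0.983. On the 12 arrays they had -0.07, -0.05, -0.02, -0.05 and -0.06 in this order. These bounds leave room for a lower level of up to 0.26 in Chl1. Ank1 turned above 0 in 9 of 25 alternative settings. Over all 29 probes 23 were lower and 0 passed, where 0.201% of all probes passed. At an unadjusted p under 0.05 there were 10 of the 29 and 12.9% of all probes. The fourth Nfasc probe had the smallest p of them, at -0.30 (95% interval -0.46 to -0.15, limma adjusted p = 0.128), and the second Chl1 probe had the highest value, 0.25 (-0.11 to 0.62).

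**Figure D4:**
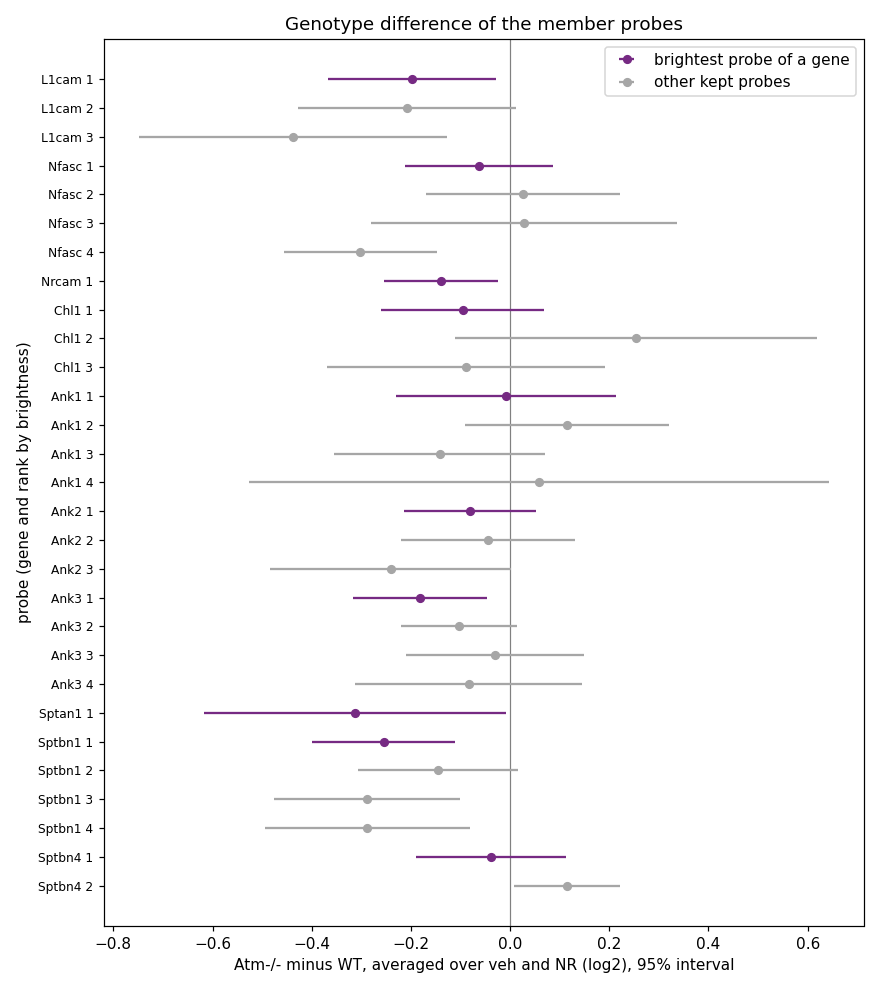
Atm-/- minus WT difference in log2 signal averaged over veh and NR, with 95% intervals (horizontal axis), of the 29 kept probes, where dark points are the brightest probe of each gene. All 10 dark points lie below 0, from -0.31 for Sptan1 to -0.01 for Ank1, and none passed the adjusted threshold.

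Cell composition was read beside the genotype difference. All 9 oligodendrocyte markers were lower in Atm-/- mice by the same contrast, with a median of -0.24 and 0 passing (1 at an unadjusted p under 0.05), and all 9 were detected on every array. On veh alone 5 of these 9 markers were lower (median -0.03), and on NR alone all 9 were (median -0.36). Their summed signal ran from 17.82 to 18.39 on veh and 18.29 to 18.75 on NR in WT mice, and from 18.00 to 18.05 on veh and 17.90 to 18.21 on NR in Atm-/- mice. The Purkinje list had 8 of 10 markers higher with a median of 0.02, and its summed signal ran from 20.28 to 20.67 in WT veh and from 20.51 to 20.61 in Atm-/- NR arrays. Of the other lists, all 6 kept microglia markers (median -0.14) and all 5 of the choroid plexus (median -0.52) were lower, and all 4 of red blood cells (median 0.31) were higher. The choroid plexus median was -0.97 on veh and -0.16 on NR, and WT veh replicate 4 had by far the highest choroid plexus signal. The remaining lists held both signs, among them forebrain excitatory neurons with 4 of 5 lower (median -0.33). No marker of these lists passed. The part of these lists in the member values was not tested.

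Averaged over the 10 brightest probes after centring each on its own mean, the level in WT mice was 0.08 ± 0.04 on veh and 0.06 ± 0.05 on NR (SD, n = 4). In Atm-/- mice it was -0.03 ± 0.05 on veh and -0.10 ± 0.07 on NR. Both WT means lay above both Atm-/- means, and neighbouring groups in this order overlapped.

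The genotype difference within each treatment shares its arrays with the contrasts that chose the genes, and is given as a description. On veh 15 of the 29 probes were lower in Atm-/- mice with a median of -0.04, and on NR 27 of 29 were lower with a median of -0.23, Nrcam at 0.03 and the second Sptbn4 probe at 0.04 being the exceptions. Over all kept probes 50.7% were lower on veh and 49.7% on NR. None of the 29 passed in either comparison, where 0.0537% of all probes passed in each. At an unadjusted p under 0.05 there were 8 of the 29 on veh, with 14.6% of all probes, and 10 of the 29 on NR, with 5.21% of all probes. Nrcam had -0.31 (SE 0.08) on veh, and Nfasc went from 0.15 (SE 0.10) on veh to -0.27 (SE 0.10) on NR.

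**Figure D5:**
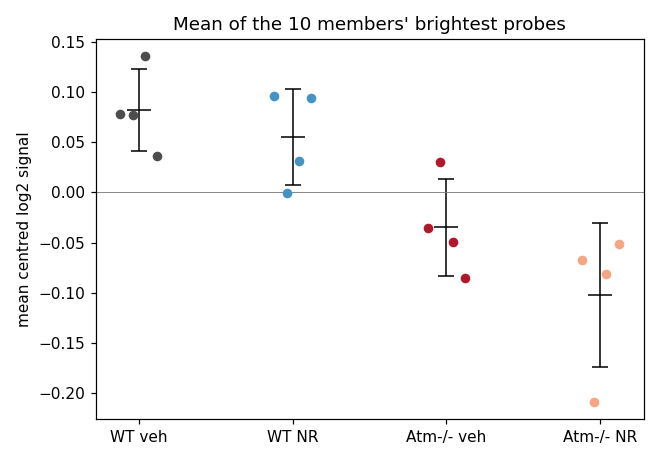
Mean over the 10 genes of the centred log2 signal of the brightest probe (vertical axis) in the 4 groups, with 1 point an array and bars for mean ± SD (n = 4). WT veh arrays lie between 0.04 and 0.14 and Atm-/- NR arrays between -0.21 and -0.05.

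Partner genes were taken as 3 lists, each gene by its brightest kept probe only. The rule that chose the members looked at L1 pathway gene sets, which can share genes with these lists. The NR values and calls of the partners are therefore also a description and support nothing. Of 18 other spectrins, adducins, tropomodulins and related membrane-skeleton genes, 16 were measured. For NR in Atm-/- mice 4 of the 16 passed as lower and 1 as higher, with a median of -0.21, where 4.8% of all named genes passed as lower and 6.67% as higher. Tmod1, which caps actin filaments in the spectrin lattice, differed by -0.44 (SE 0.09) and passed. Epb41l2, which joins spectrin and actin to membrane proteins, differed by 0.56 (SE 0.16) and passed, with Atm-/- veh arrays at 12.52 to 12.64 and Atm-/- NR arrays at 12.94 to 13.31. Slc4a1, the red cell anion exchanger that binds ankyrin-1, had the lowest value, -0.75 (SE 0.48), without passing, and the next highest value after Epb41l2 was 0.18 (SE 0.18) for Tmod3. In the genotype average 10 of the 16 were lower, 0 passed and 3 had an unadjusted p under 0.05, where 13.1% of all named genes had.

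Of 27 channel and scaffold genes of initial segments and nodes, 24 were measured, and 19 were lower in the genotype average with a median of -0.09. 1 of the 24 passed, where 0.221% of all named genes did. Scn4b, a beta subunit of voltage-gated sodium channels, read 13.55 to 13.95 on veh and 13.82 to 14.34 on NR in WT mice, and 13.17 to 13.57 on veh and 13.35 to 13.61 on NR in Atm-/- mice. Its difference was -0.50 (SE 0.09, limma adjusted p = 0.0494), just inside the threshold, and the genotypes overlapped by a narrow margin. Where Scn4b lies relative to the targeted Atm allele was not examined, and the strain background is mixed. For NR in Atm-/- mice 2 of the 24 passed as lower and 2 as higher, beside 4.8% and 6.67% of all named genes. The microtubule crosslinker Mtcl1 had -0.56 (SE 0.15) and passed, and the paranodal Cntnap1 had -0.42 (SE 0.14) and did not. The highest values, 1.76 (SE 1.09) for Scn3a and 1.41 (SE 1.004) for Scn3b, came with wide spreads and did not pass. The 4 WT veh arrays alone ran from 6.80 to 11.02 in Scn3a.

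All 45 L1 ligands, co-receptors, signalling and endocytosis genes were measured. For NR in Atm-/- mice 3 passed as lower and 2 as higher, with a median of -0.04, so that 5 of 45 passed beside 11.5% of all named genes. In the genotype average 0 passed and the median was 0.01, and 7 of 45 had an unadjusted p under 0.05, beside 13.1% of all named genes. Ap2b1, a subunit of the clathrin adaptor that takes up L1, had the lowest value, -0.98 (SE 0.26), and passed. The Atm-/- veh arrays read 12.16 to 12.77 and the Atm-/- NR arrays 11.30 to 11.91, without overlap. Itga5, an integrin subunit, had -0.73 (SE 0.35), and the highest values were 0.51 (SE 0.42) for the L1-binding proteoglycan gene Ncan and 0.48 (SE 0.36) for the microtubule protein gene Dcx, all 3 without passing.

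The genes whose array-by-array pattern lay nearest to that of L1cam, by the root mean square difference of centred log2 signals over 16 arrays, were Supt6 (0.132), Tnpo2 (0.134), Cln3 (0.138), Rai1 (0.139) and Acap3 (0.141), where the median over 16727 other named genes was 0.336. For the mean of the 10 genes they were Sbno1 (0.0598), Nup214 (0.0602), Ap1g1 (0.0610), Dync1i2 (0.0624) and Cherp (0.0632), against a median of 0.220.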

How the data were processed

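Cerebellar RNA of 16 mice was hybridised to 16 one-colour arrays. The deposited scanner files hold spot intensity, background-subtracted by the authors with Agilent Feature Extraction 12.0.3.1, and a deposited table holds the score of each spot that the authors made by filtering, quantile normalisation and conversion to z-scores, used as an alternative. A probe was kept where it was well above background on every array of some group. Deposited intensity was put on the log2 scale, quantile-normalised and averaged per probe without outlier spots. Leaving out these spots removed 788 probes, and 37253 of 56605 were left after both steps. For the check of Atm all probes were normalised together. Genes were named through RefSeq transcript accessions (58.3% of probes), and the brightest kept probe stood for a gene, with the other probes reported. One limma 3.58.1 model (R 4.3.3) of 4 group means with 12 residual degrees of freedom gave differences, SE and Benjamini-Hochberg adjusted p over all kept probes, and was tested on simulated data. Named partners were every gene called in the genotype average and the 2 highest and 2 lowest NR differences in Atm-/- mice of each list. The members, lists and tests were chosen with earlier results of these data known. Alternatives were other scalings, background correction, filters, the z-scores, a plain t-test on the z-scores, a replicate block and leaving out arrays. P-values measure the spread between these mice, and the number of arrays limits the precision.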

Additional observations from a re-analysis of the deposited data

Results flagged for a closer look

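Over the 29 kept probes, 116 sets of 4 arrays were examined for a value far from the other 3 of its group, and 4 stood out, where chance alone gives about 1 in 20. L1cam probe 2 read 9.10 in WT NR replicate 4, with the other 3 arrays at 8.69 to 8.76. This array lacked Y-gene signal. Ank1 probe 1 read 11.78 in WT veh replicate 4, against 12.40 to 12.48, and Sptbn1 probe 1 read 16.47 in the same array, against 16.15 to 16.19. That array had the high choroid plexus signal. Sptbn1 probe 2 read 13.27 in Atm-/- NR replicate 2, against 13.52 to 13.53.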

How the results depend on the processing

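The count of member genes called in the genotype average was 0 in every alternative but the t-test on z-scores at an unadjusted p under 0.05. That test gave 3 genes and 9 probes. Limma's fit, a different test, had 12.9% of all probes under that threshold. The t-test's own share is not given, so nothing is read from its counts. Leaving out 1 array at a time kept the number of member genes called in limma's fit at 0. In these fits 8 to 10 of the 10 genes were lower, and 47 to 89 probes were called over the array. The direction turned for genes near 0. Averaging all kept probes gave 0.023 for Chl1, 0.0057 for Ank1 and 0.038 for Sptbn4, normexp background correction gave 0.0080 for Ank1, and leaving out 1 array gave -0.089 to 0.031 for Ank1 and -0.066 to 0.00014 for Sptbn4. For NR in Atm-/- mice, 1 gene was called with only the arrays of the 2 groups compared, 1 with the mean of all kept probes, and 1 gene and 2 probes when only the 12 arrays with Y-linked signal entered, which was chosen after seeing the data. Leaving out 1 array gave 0 to 2 genes and 1 to 7 probes. The t-test gave 4 genes and 15 probes at its threshold and 1 gene after adjustment, and in WT mice 1 gene and 2 probes at its threshold. In limma's fit 27.3% of all probes had an unadjusted p under 0.05 for NR in Atm-/- mice and 7.62% in WT mice. The t-test's own share over all probes is not given, and nothing is read from its counts. Leaving out 1 array moved the calls over all probes in Atm-/- mice from 862 to 4405, against 3366 with all arrays, and the 12 arrays gave 438. The cause was not tested. The z-scores are on another scale, and only their sign was read. The genotype average uses all 4 groups, so it has no setting with fewer groups.

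The labels do not say whether replicate numbers pair the mice, and same-numbered arrays did not deviate together. This cannot exclude a pairing that left no trace in these signals. Deviations of same-numbered arrays from their group means correlated at -0.33 to 0.37 over 24 pairs (mean -0.0016), and 2 of 16 arrays matched best with their own number. With the replicate block, 0 member genes were called in the genotype average, 2 for NR in Atm-/- mice and 0 in WT mice, and the calls over all probes were 59, 3140 and 0.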
